A study of Mus musculus with 19 samples.

Results

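Genes of the cell cycle and of DNA replication were followed in endothelial cells sorted from mouse lymphoid tissue. The set had 42 members, taken by name, and a member's value was the mean over the probe sets that carry its symbol alone. In all, 41 of the 42 were measured among 19938 genes, and Ccnb1 was not analysed here. The arrays came from a study that set capillary endothelium beside the high endothelium through which lymphocytes enter lymphoid organs. All cells were from adult BALB/c mice of 6 to 8 weeks, an equal mix of males and females. High endothelial cells (HEC) were on 3 arrays for Peyer's patches, the lymphoid tissue of the gut wall, on 4 for mesenteric lymph nodes and on 4 for peripheral lymph nodes. The mesenteric HEC were sorted as MAdCAM1+/PNAd+ cells (2 arrays) or as MAdCAM1+ cells (2 arrays). MAdCAM1 and PNAd are the adhesion molecules by which lymphocytes recognise mucosal and peripheral high endothelium. Capillary cells were on 3 arrays for Peyer's patches, 2 for mesenteric nodes and 3 for peripheral nodes. The labels give no further gates, and they do not say that replicate arrays came from separate mice, so that the p-values measure the spread between samples, which may be technical.

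Cell division runs on a program in which each step sets up the next. Origins of replication are licensed by loading of the MCM2-7 helicase, E2F factors turn on the genes of S phase, and cyclins with Cdk1 drive mitosis, where kinases and motor proteins build the spindle and part the chromosomes. Most adult endothelium is quiescent, and high endothelium is known to divide when lymph nodes enlarge. The deposited values are log2 signals centred per probe set, so that only differences between arrays can be read from them and no gene's level can be set against another's.

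The promoters of 4 members are shown because these genes stand for different steps of the program and are named in the comparisons that follow. They are not the members called most often. The stretches run from 180 bases before to 20 bases after the start site, are taken from RefSeq on GRCm38.p6, and are written 5′ to 3′ on the gene's own strand. Capitals mark a CHR word (TTTGAA, bound by the MuvB complex in mitotic genes), a CCAAT word (bound by NF-Y) or an E2F word (TTTCCCGC, TTTCGCGC, TTTGCCGC or TTTGGCGC), each searched on both strands; where words touch or overlap, the capitals run together.
Cdk1, chr10:69352893-69353092, minus strand: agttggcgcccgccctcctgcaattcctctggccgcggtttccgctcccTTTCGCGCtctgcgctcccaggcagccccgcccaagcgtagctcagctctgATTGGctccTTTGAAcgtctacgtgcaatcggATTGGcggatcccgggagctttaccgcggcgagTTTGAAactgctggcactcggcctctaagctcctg
Kif11, chr19:37376202-37376401, plus strand: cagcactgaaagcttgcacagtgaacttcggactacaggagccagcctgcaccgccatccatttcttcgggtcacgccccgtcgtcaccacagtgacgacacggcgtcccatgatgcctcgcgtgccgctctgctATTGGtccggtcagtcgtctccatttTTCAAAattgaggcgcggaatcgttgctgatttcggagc
Ccnb2, chr9:70421535-70421734, minus strand: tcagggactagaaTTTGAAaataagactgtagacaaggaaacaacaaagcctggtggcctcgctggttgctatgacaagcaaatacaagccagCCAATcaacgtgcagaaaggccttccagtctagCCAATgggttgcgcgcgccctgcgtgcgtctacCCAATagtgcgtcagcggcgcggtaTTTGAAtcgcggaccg
Mcm5, chr8:75109329-75109528, plus strand: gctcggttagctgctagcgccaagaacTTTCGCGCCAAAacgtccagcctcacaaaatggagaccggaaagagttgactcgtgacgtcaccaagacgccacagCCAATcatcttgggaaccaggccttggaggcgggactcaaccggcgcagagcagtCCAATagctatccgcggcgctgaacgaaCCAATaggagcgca
Windows of 300 bases, 250 before and 50 after the start, were held for 34 of the 41 measured members. A CHR word stood in the windows of 15 members (44.1%), against 20.2% of 27025 genes with a window and 17.9% of their 32851 windows. A CCAAT word stood in 25 (73.5%), against 41.1% of genes and 37.4% of windows, and an E2F word in 8 (23.5%), against 2.6% and 2.3%. The words were spread unevenly over the roles. The E2F words were in 6 of 9 licensing and fork genes, which held CHR words in 2 of 9. The CHR words were in 6 of 8 spindle genes and 4 of 6 mitotic kinases and checkpoint genes, with no E2F word in either role. The windows of E2f1 and Nusap1 held none of the words, and that of Rrm2 held a CCAAT word alone. These genes were called in more of the comparisons below than any gene whose promoter is shown. These matches describe letters and are not evidence of binding.

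The arrays differed among themselves in ways that touch the results. Peripheral capillary arrays 1 and 2 stood apart from array 3 in genes that define high endothelium. Glycam1, which encodes a mucin-like ligand of L-selectin, was at 4.42, 4.12 and 1.70 on peripheral capillary arrays 1, 2 and 3, against 4.60 to 5.07 in peripheral HEC and −2.26 to −0.66 in Peyer's patch capillary cells. Chst4, the sulfotransferase of PNAd, was at 2.19, 1.57 and −0.15 on the same 3 capillary arrays, against 5.91 to 6.13 in peripheral HEC. Peripheral results are therefore also given without arrays 1 and 2. Arrays of Peyer's patch HEC were the least alike: array 3 was the highest of the 3 for 26 of 41 members, and array 2 the lowest for 29. The SD of the difference between those 2 arrays was 0.528 over the members and 0.45 over all genes, while other replicate pairs had 0.196 to 0.312 over all genes.

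**Figure D1:**
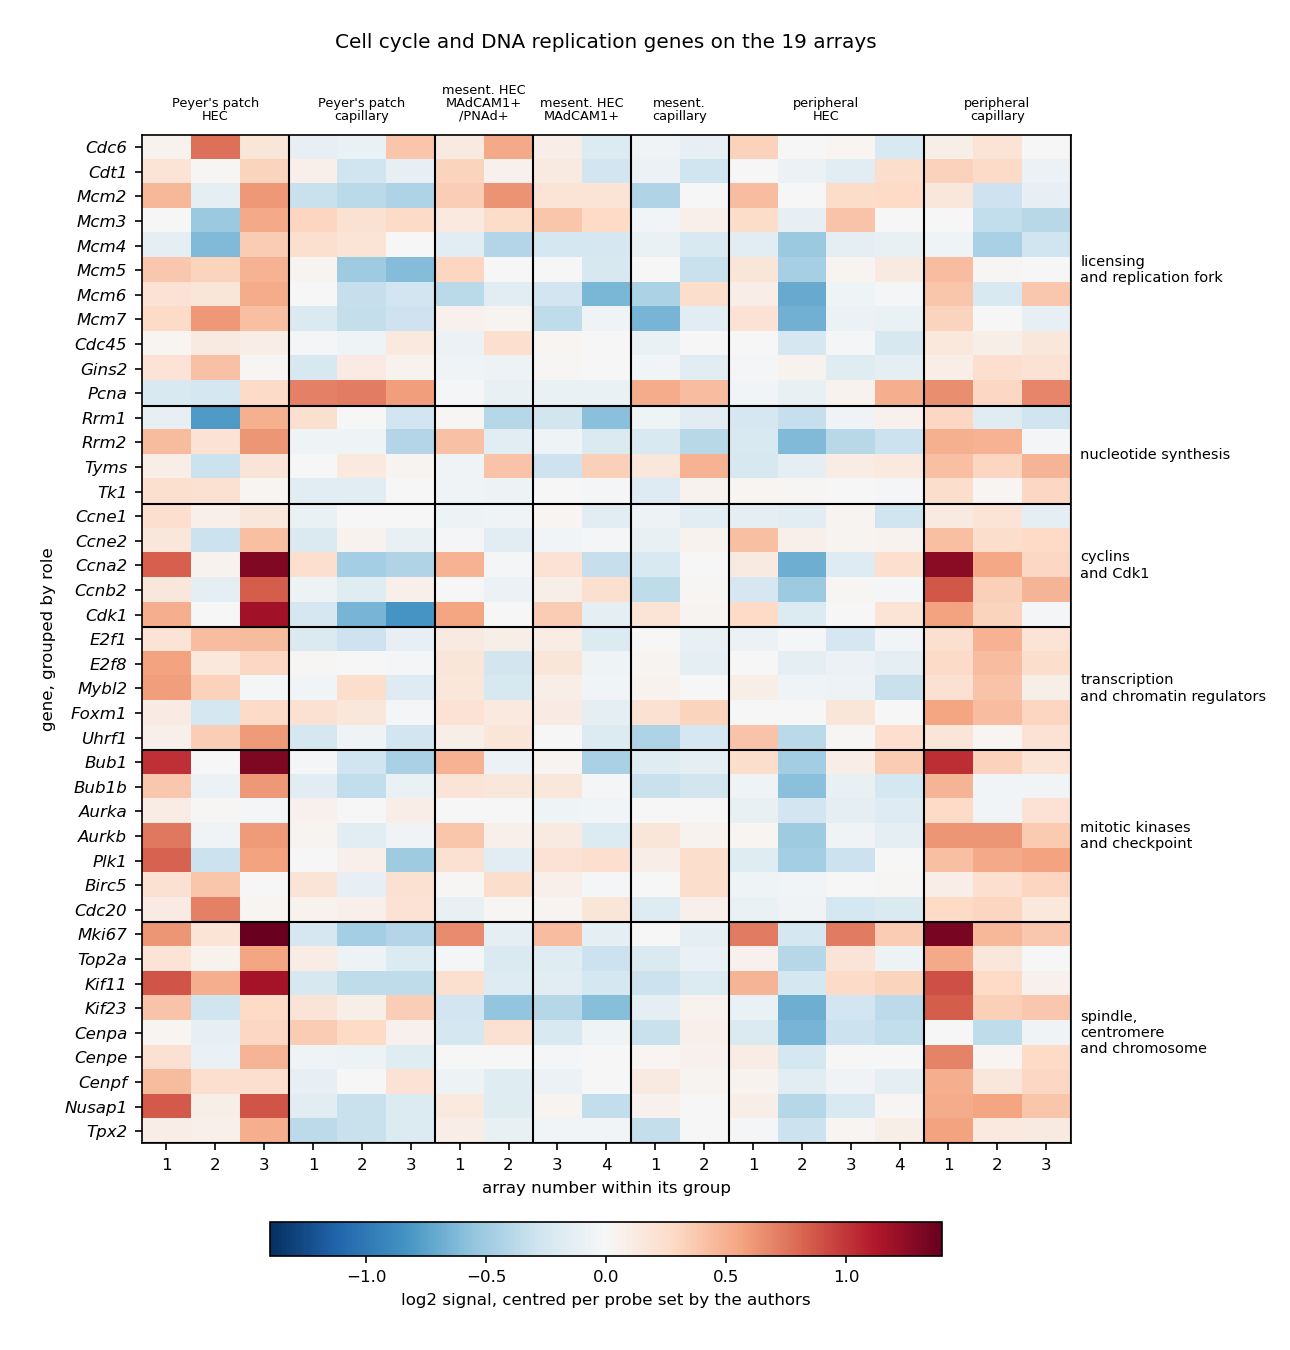
Centred log2 value of the 41 measured members (down the page, by role) on each of the 19 arrays (across, by group), with blue below and red above 0. The columns of Peyer's patch HEC arrays 1 and 3 and of peripheral capillary array 1 hold the darkest red, among cyclins, mitotic and spindle genes, and peripheral HEC array 2 is blue for most of the same genes.

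HEC of Peyer's patches were higher than Peyer's patch capillary cells in 13 of 41 members and lower in 1. Of all 19938 genes, 8.9% were called higher and 10.6% lower in this comparison. A gene was called where limma's moderated test gave a Benjamini-Hochberg adjusted p under 0.05 over all genes. The difference was above 0 for 32 members and for 57% of all genes, and its median was 0.30 over the members and 0.03 over all genes, on the log2 scale. The groups did not overlap for 18 members that were higher in HEC (13.1% of all genes) and for 1 that was lower (13.9%). In such bulk samples, fewer cycling cells and less RNA per cell cannot be told apart.

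Among the licensing and fork genes, 3 subunits of the MCM helicase rose. Mcm5 was at 0.38, 0.31 and 0.48 in Peyer's patch HEC, against 0.04, −0.50 and −0.61 in the capillary cells, a difference of 0.75 ± 0.19 (SE, adjusted p = 0.00728). Mcm7 was at 0.26, 0.61 and 0.43 in HEC, against −0.20, −0.34 and −0.29 in capillary cells (0.71 ± 0.18, adjusted p = 0.0101). Neither subunit's groups overlapped. Mcm2 had 0.47, −0.14 and 0.61 in HEC, against −0.31, −0.38 and −0.43 in capillary cells, again apart, though HEC array 2 lay well below the other two (0.68 ± 0.17, adjusted p = 0.00866). These 3 calls held whichever array was left out. The other subunits of the same ring did not pass the test: the differences were 0.49 ± 0.22 for Mcm6, −0.26 ± 0.19 for Mcm3 and −0.27 ± 0.18 for Mcm4. Whether the subunits differed from each other was not tested. Rrm2, the regulated subunit of ribonucleotide reductase, which makes the DNA precursors, rose by 0.60 ± 0.17 (adjusted p = 0.0176), while its partner Rrm1 differed by −0.12 ± 0.24. The Rrm2 call was lost without HEC array 1 or 3 or capillary array 3, with adjusted p up to 0.0967.

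The cyclin-dependent kinase of mitosis was among the members with the largest differences. Cdk1 was at 0.50, 0.01 and 1.17 in Peyer's patch HEC, against −0.23, −0.65 and −0.82 in the capillary cells. The groups were apart, and the difference was 1.13 ± 0.25 (adjusted p = 0.00313), a 2.19-fold higher signal. Its partner cyclin A2 (Ccna2) was at 0.84, 0.05 and 1.29 in HEC, against 0.23, −0.48 and −0.42 in capillary cells, where HEC array 2 lay below capillary array 1 (0.95 ± 0.32, adjusted p = 0.0443); this call was lost in 9 of the 19 fits that left out 1 array (adjusted p up to 0.166, without capillary array 2). Ccnb2, a B-type cyclin, did not pass (0.35 ± 0.21, adjusted p = 0.293). Among the regulators of transcription and chromatin, E2f1, an activator of S phase genes, was at 0.20, 0.44 and 0.44 in HEC, against −0.20, −0.29 and −0.12 in capillary cells (0.56 ± 0.11, adjusted p = 0.000854). Uhrf1, which carries DNA methylation through replication, rose by 0.53 ± 0.16 (adjusted p = 0.0295), though not without HEC array 2 or 3 or capillary array 1 or 3, whereas Foxm1, a driver of mitotic genes, differed by −0.07 ± 0.12.

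Of the mitotic kinases and checkpoint genes, Bub1 alone of 7 passed. This kinase of the spindle checkpoint was at 1.03, 0.00 and 1.31 in Peyer's patch HEC, against −0.02, −0.28 and −0.46 in capillary cells (1.03 ± 0.30, adjusted p = 0.0212). The margin between the groups was set by HEC array 2, which lay close to capillary array 1. Without HEC array 1 or 3, or capillary array 2 or 3, the adjusted p of Bub1 was 0.0632 to 0.0919. Bub1b (0.49 ± 0.17), Aurkb (0.48 ± 0.18) and Plk1 (0.51 ± 0.22) missed the threshold, and Aurka differed by −0.02 ± 0.09, with a 95% interval of −0.20 to 0.16.

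Spindle and chromosome genes gave 4 calls of 9. Kif11, the motor protein that pushes spindle poles apart, was at 0.88, 0.51 and 1.17 in Peyer's patch HEC, against −0.22, −0.36 and −0.35 in the capillary cells. All HEC arrays were above all capillary arrays by a wide gap, and the difference of 1.16 ± 0.21 (adjusted p = 0.000503) was a 2.24-fold higher signal. Mki67, which encodes the Ki-67 protein of dividing cells, was at 0.62, 0.19 and 1.39 in HEC, against −0.23, −0.48 and −0.42 in capillary cells (1.10 ± 0.32, adjusted p = 0.0196), and without HEC array 3 or capillary array 2 or 3 its adjusted p was 0.0584 to 0.0903. Nusap1, which binds spindle microtubules, was at 0.86, 0.09 and 0.88 in HEC, against −0.15, −0.31 and −0.19 in capillary cells (0.82 ± 0.18, adjusted p = 0.00266). Tpx2, the activator of Aurora A, rose by 0.51 ± 0.15 (adjusted p = 0.0181), a call lost without HEC array 3 or capillary array 1 or 2 (adjusted p up to 0.0797). In Mki67 and Nusap1, as in Cdk1, HEC array 2 was the lowest of its group and still above every capillary array. Top2a, the topoisomerase that untangles chromosomes, differed by 0.71 in one of its probe sets and by −0.07 in the other, which hardly varied over the arrays.

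**Figure D2:**
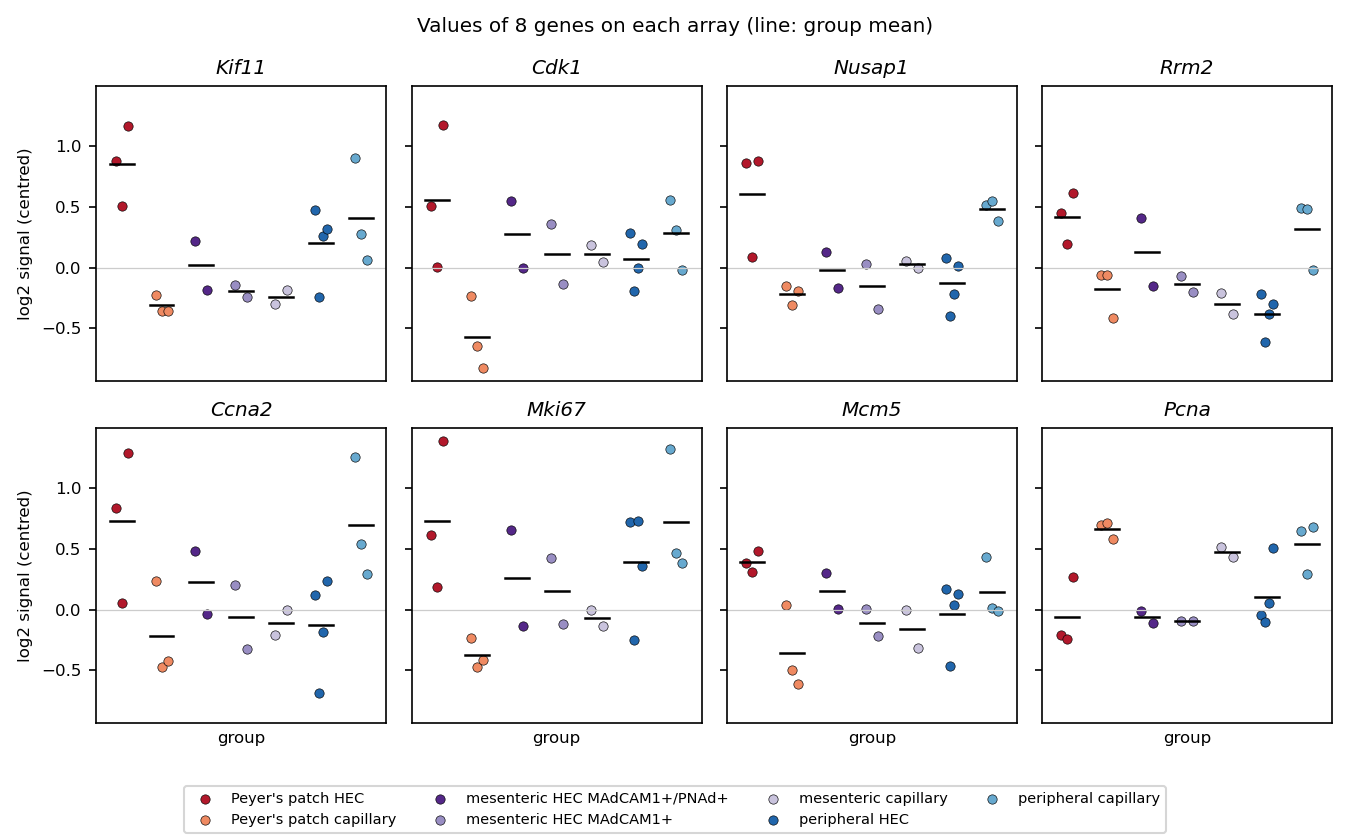
Centred log2 value of 8 members on each array (points) by tissue and cell type, with group means as lines. Kif11 lies at 0.51 to 1.17 in Peyer's patch HEC and at −0.36 to −0.22 in Peyer's patch capillary cells, while the group means of Pcna are higher in capillary cells than in HEC of each tissue.

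Pcna, the sliding clamp that holds DNA polymerase on the template, was lower in HEC than in capillary cells of every tissue. It was at −0.21, −0.25 and 0.27 in Peyer's patch HEC, against 0.70, 0.72 and 0.58 in Peyer's patch capillary cells. In mesenteric nodes it was at −0.01 and −0.11 in MAdCAM1+/PNAd+ HEC and −0.09 and −0.10 in MAdCAM1+ HEC, against 0.52 and 0.44 in capillary cells. In peripheral nodes it was at −0.04, −0.10, 0.05 and 0.51 in HEC, against 0.65, 0.29 and 0.68 in capillary cells. The groups were apart in the first 2 tissues and overlapped in peripheral nodes through HEC array 4 and capillary array 2. The differences were −0.73 ± 0.16 in Peyer's patches (adjusted p = 0.00243), −0.56 ± 0.17 in mesenteric nodes (0.0296) and −0.44 ± 0.15 in peripheral nodes (0.0382). Both Pcna probe sets gave these differences within 0.02 of each other. Their values lay at most 0.043 apart on any array, so that it cannot be told whether they are separate readings. The Peyer's patch call held whichever array was left out. The mesenteric call was lost without either capillary array or any of 3 HEC arrays (adjusted p up to 0.214), and the peripheral call without capillary array 1 or 3 or HEC array 1, 2 or 3 (adjusted p up to 0.151).

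In peripheral nodes the sign was the opposite one for most members: 31 of 41 had a difference below 0 there and above 0 in Peyer's patches. The share of all genes with this pair of signs was not counted. Taken singly, 57% of all genes were above 0 in Peyer's patches and 41.7% in peripheral nodes. Peripheral HEC were lower than peripheral capillary cells in 13 of 41 members and higher in 0, where 11.4% of all genes were called lower and 13.1% higher. The difference was below 0 for 38 members and above 0 for 41.7% of all genes, with a median of −0.32 over the members and −0.05 over all genes, and 19 members had groups that did not overlap, all lower in HEC (19.6% of all genes). Peripheral capillary array 1 was the highest of its group for 26 members. Without peripheral capillary arrays 1 and 2, which carried the high Glycam1, 1 member (Aurka) was called, although 32 of 41 differences stayed below 0 and the median was −0.27. That fit takes the spread of the remaining array from the other groups.

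By role, 8 of the 13 calls in peripheral nodes were of mitotic kinases and checkpoint genes, of spindle genes or of the cyclin Ccnb2. Of the 41 measured members, 7 were mitotic kinases and checkpoint genes, 9 were spindle genes and 5 were cyclins or Cdk1. Ccnb2 was the only call in the last role. Whether the calls favoured any role was not tested. Kif23, a motor protein of the midbody, was at −0.10, −0.68, −0.27 and −0.37 in peripheral HEC, against 0.85, 0.33 and 0.38 in peripheral capillary cells (−0.88 ± 0.17, adjusted p = 0.000913). Plk1, the Polo-like kinase of mitotic entry, was at −0.17, −0.47, −0.31 and 0.01 in HEC, against 0.42, 0.54 and 0.56 in capillary cells (−0.74 ± 0.20, adjusted p = 0.0134). Aurkb, the kinase of the chromosomal passenger complex, was at 0.02, −0.49, −0.05 and −0.13 in HEC, against 0.62, 0.61 and 0.37 in capillary cells (−0.70 ± 0.16, adjusted p = 0.00475). In all 3 genes every HEC array lay below every capillary array, and HEC array 2 was the lowest. Ccnb2 was at −0.23, −0.51, 0.02 and −0.03 in HEC, against 0.87, 0.34 and 0.48 in capillary cells (−0.75 ± 0.19, adjusted p = 0.00842). Nusap1 was at 0.08, −0.40, −0.21 and 0.01 in HEC, against 0.52, 0.55 and 0.38 in capillary cells (−0.61 ± 0.17, adjusted p = 0.0122). These groups did not overlap either, and among the other mitotic members Cdc20, Cenpf and Aurka were also called, with differences of −0.39 ± 0.13, −0.39 ± 0.10 and −0.32 ± 0.08. Without capillary array 2 the adjusted p of Nusap1 was 0.0537, and the Cdc20 call was lost without any 1 of the 3 capillary arrays or HEC array 1, 3 or 4.

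Rrm2 was at −0.22, −0.62, −0.38 and −0.30 in peripheral HEC, against 0.49, 0.48 and −0.02 in peripheral capillary cells, and fell by 0.70 ± 0.16 (adjusted p = 0.00347). Of the transcription regulators, E2f1 was at −0.08, −0.02, −0.24 and −0.04 in HEC, against 0.22, 0.48 and 0.19 in capillary cells (−0.39 ± 0.10, adjusted p = 0.008). E2f8, a repressor of E2F targets, and Foxm1 fell by 0.40 ± 0.11 and 0.39 ± 0.11. Without capillary array 2 the adjusted p was 0.0668 for E2f1 and 0.0766 for E2f8, and the Foxm1 call was lost without capillary array 1 or 2. The licensing genes gave no call beside Pcna: Mcm3 and Mcm2 differed by 0.38 ± 0.18 and 0.32 ± 0.16, above 0 and past no threshold.

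In mesenteric nodes the differences were mostly small. Pcna was the 1 member called in mesenteric HEC against mesenteric capillary cells, with 0 called higher, while 7.31% of all genes were called lower and 7.87% higher. At an unadjusted p under 0.05 there were 4 members (24.2% of all genes), of which Mcm2 (0.55 ± 0.18, adjusted p = 0.0549) and Bub1b (0.40 ± 0.18) were higher and Kif23 (−0.42 ± 0.19) lower beside Pcna. The difference was above 0 for 24 of 41 members and for 48.7% of all genes, with a median of 0.05. Between the MAdCAM1+/PNAd+ and the MAdCAM1+ gate, 0 members were called and 0 had an unadjusted p under 0.05 (1.68% of all genes), and of all genes 0% were called higher and 0.0201% lower. Bub1 differed by 0.41 ± 0.37 between the gates, with 2 arrays in each.

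**Figure D3:**
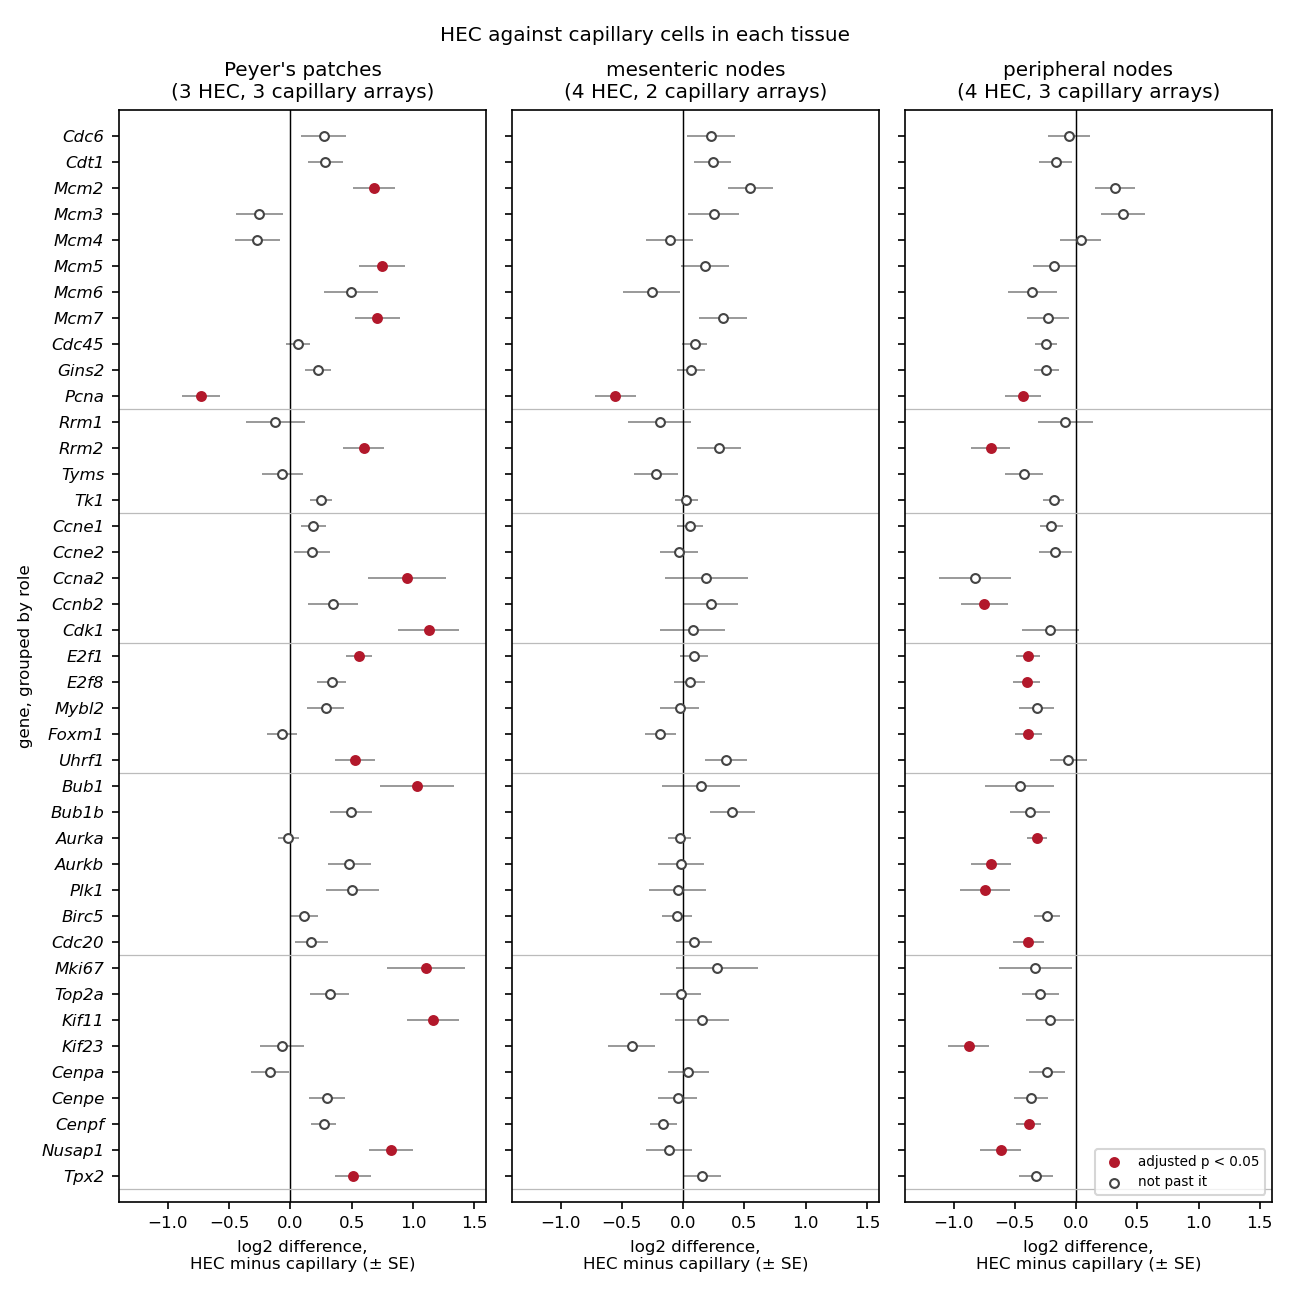
Log2 difference of HEC minus capillary cells for each measured member (points, with bars of ± SE) in Peyer's patches, mesenteric nodes and peripheral nodes, with called members filled. Most points lie right of 0 in Peyer's patches and left of 0 in peripheral nodes, and Pcna lies left of 0 in all 3 panels.

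The difference between HEC and capillary cells was then compared between tissues. It was more positive in Peyer's patches than in peripheral nodes for 14 of 41 members and more negative for 0, as tested by the interaction of cell type and tissue; of all genes 1.69% were called more positive and 2.37% more negative. The interaction was above 0 for 37 members (56.2% of all genes), with a median of 0.61 over the members and 0.04 over all genes. It was largest for Ccna2 (1.77 ± 0.43, adjusted p = 0.0276), Nusap1 (1.44 ± 0.24, adjusted p = 0.00199), Kif11 (1.38 ± 0.29, adjusted p = 0.00988) and Cdk1 (1.34 ± 0.34, adjusted p = 0.035). The calls of Ccna2 and Cdk1 were lost without several of the arrays, with adjusted p up to 0.0847 and 0.0907 (without Peyer's patch capillary array 2). E2f1 had the lowest adjusted p (0.95 ± 0.15, adjusted p = 0.000818). E2f1, Nusap1 and Rrm2 were called on their own in both tissues, in opposite directions. Bub1b was called in the interaction (0.87 ± 0.24, adjusted p = 0.0487) and in neither tissue alone, and that call held in 3 of the 19 fits that left out 1 array (adjusted p up to 0.268 over all alternatives).

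Roles were described by the median of their single-gene interactions and were not tested as sets. The median interaction was 1.10 over the 5 measured cyclins and Cdk1 (3 called). It was 0.87 over the 7 mitotic kinases and checkpoint genes (3 called) and 0.81 over the 9 spindle genes (4 called). It was 0.61 over the 5 transcription regulators (2 called), 0.40 over the 4 nucleotide genes (1 called) and 0.36 over the 11 licensing and fork genes, of which Mcm7 was called, in 5 of the 19 fits that left out 1 array. Mcm3 (−0.64) and Pcna (−0.29) had interactions below 0. The promoters described above can be set beside these calls. A CHR word stood in 7 of the 11 called members with a window (63.6%) and in 8 of the 23 others (34.8%). An E2F word stood in 2 (18.2%) and 6 (26.1%). Whether the words went with the calls was not tested. The calls lay mostly among cyclin, mitotic and spindle genes, roles that make up 5, 7 and 9 of the 41 measured members. The called members whose windows held no CHR word were E2f1, Nusap1, Rrm2 and Mcm7. No window was held for Aurkb, Ccna2 and Tpx2, which were called. Without peripheral capillary arrays 1 and 2 the median interaction stayed at 0.61, with 37 members above 0, and E2f1 (adjusted p = 0.0216) and Nusap1 (adjusted p = 0.0478) were still called. The count was 8 (14 with all arrays) when peripheral capillary array 1, Peyer's patch capillary array 2 or 3, or Peyer's patch HEC array 1 was left out. Against mesenteric nodes, 0 members were called in the Peyer's patch interaction (0.316% of all genes more positive), with 6 members at an unadjusted p under 0.05 (7.15% of all genes). Mesenteric against peripheral nodes gave 0 as well (0.145%), with 13 members at an unadjusted p under 0.05 (6.29% of all genes).

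**Figure D4:**
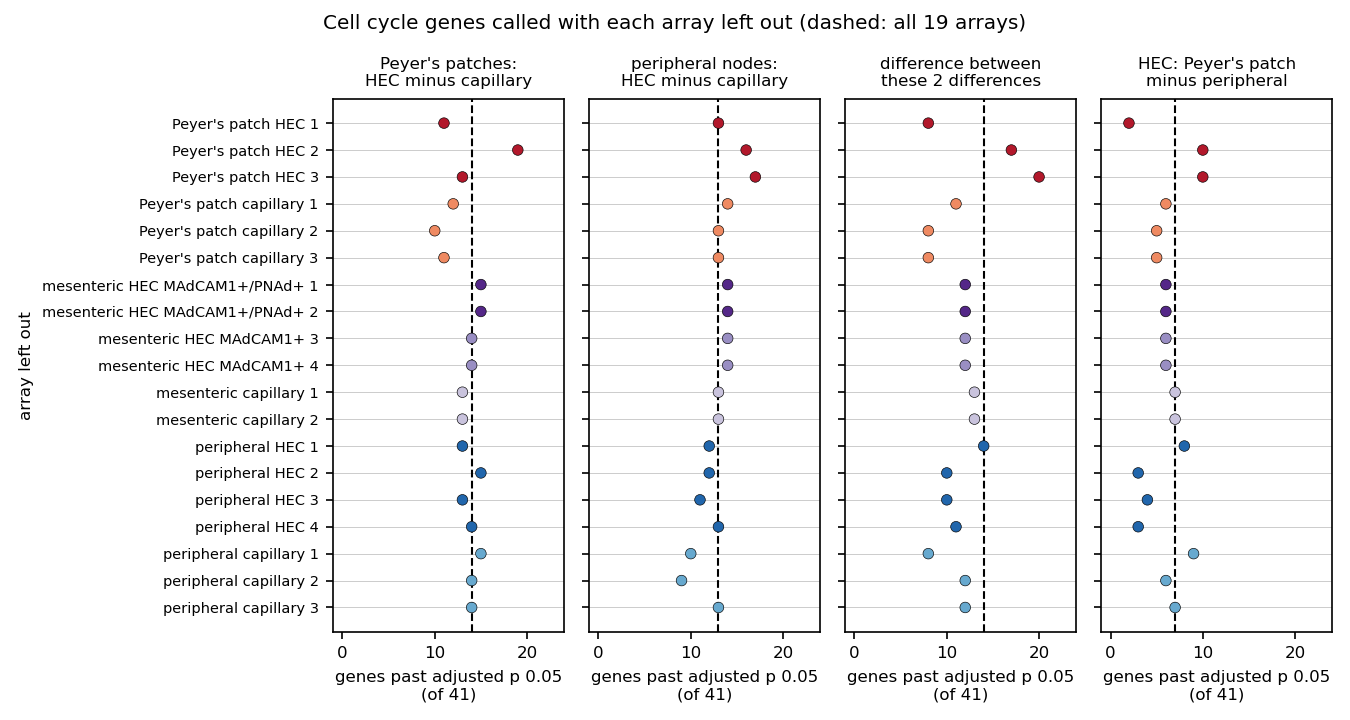
Number of members called (horizontal axis) when each array is left out in turn (down the page), for 4 comparisons, with a line at the count from all 19 arrays. The interaction of Peyer's patches and peripheral nodes ranges from 8 to 20 members, and Peyer's patch HEC minus peripheral HEC from 2 to 10.

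Compared directly, HEC of Peyer's patches were higher than HEC of peripheral nodes in 7 of 41 members and lower in 0 (2.16% and 4.49% of all genes). These are the HEC arrays of the comparisons above, so that the calls are not separate evidence. The difference was above 0 for 38 members and for 54.9% of all genes, and 15 members had groups that did not overlap (6.55% of all genes). Among the called members, Rrm2 had the largest difference (0.80 ± 0.16, adjusted p = 0.00449). It was at 0.45, 0.20 and 0.61 in Peyer's patch HEC against −0.22, −0.62, −0.38 and −0.30 in peripheral HEC. Nusap1 (0.74 ± 0.17), Mcm7 (0.59 ± 0.17), Aurkb (0.59 ± 0.16), E2f1 (0.45 ± 0.10), E2f8 (0.42 ± 0.11) and Cenpf (0.37 ± 0.10) were the others. The familiar markers of proliferation were not called: the difference was 0.34 ± 0.30 for Mki67, 0.32 ± 0.15 for Top2a and 0.49 ± 0.23 for Cdk1. The Top2a value averages a probe set with means of 0.555 in Peyer's patch and −0.083 in peripheral HEC with another that hardly varied. The means of that other probe set were −0.021 and −0.031. With the most variable probe set per gene, Top2a was not called either. Ccna2 had 0.86 ± 0.30 and Ccne1, the cyclin of S phase entry, 0.29 ± 0.09. Mcm5 (0.42 ± 0.17), Mcm2 (0.07 ± 0.16), Foxm1 (0.01 ± 0.11) and Pcna (−0.17 ± 0.15) were not called either. Rrm2 held whichever array was left out, while Mcm7 held in 5 of those 19 fits (adjusted p up to 0.226) and Aurkb in 12 (up to 0.213). The count of 7 became 2 without Peyer's patch HEC array 1, 3 without peripheral HEC array 2 or 4, and 4 without peripheral HEC array 3.

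Mesenteric HEC gave few calls against the HEC of either other tissue. Peyer's patch HEC were higher than mesenteric HEC in 1 member, Kif11, and lower in 0 (0.557% and 0.642% of all genes). Kif11 was at 0.88, 0.51 and 1.17 in Peyer's patch HEC, against 0.22, −0.18, −0.14 and −0.24 in mesenteric HEC (0.94 ± 0.20, adjusted p = 0.0224), and the groups were apart, although the adjusted p was 0.0517 to 0.128 without Peyer's patch HEC array 1, MAdCAM1+/PNAd+ array 2 or either MAdCAM1+ array. None of the markers given above passed: the differences were 0.64 ± 0.30 for Ccna2, 0.52 ± 0.30 for Mki67, 0.44 ± 0.15 for Top2a, 0.42 ± 0.16 for Rrm2, 0.37 ± 0.23 for Cdk1 and 0.37 ± 0.17 for Mcm5. Those of E2f1 (0.32 ± 0.10), Ccne1 (0.22 ± 0.09), Pcna (0.02 ± 0.15), Mcm2 (−0.03 ± 0.16) and Foxm1 (−0.03 ± 0.11) were smaller. For Top2a, the more variable probe set had means of 0.555 in Peyer's patch HEC and −0.252 in mesenteric HEC. The other had −0.021 and −0.087, and with the most variable probe set per gene Top2a was not called either. Between mesenteric and peripheral HEC, 0 members were called (0.722% of all genes higher, 1.97% lower) and 3 had an unadjusted p under 0.05 (13.9% of all genes), namely Rrm2 (0.38 ± 0.15), Bub1b (0.36 ± 0.15) and Cenpa. The other markers lay between 0.21 ± 0.27 for Ccna2 and −0.18 ± 0.28 for Mki67.

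Capillary cells differed between tissues too. In Peyer's patch capillary cells 3 members were lower than in peripheral capillary cells and 0 higher (2.24% and 2.4% of all genes): Nusap1 (−0.70 ± 0.18, adjusted p = 0.0292), Tpx2 (−0.56 ± 0.15, adjusted p = 0.0323) and E2f1 (−0.50 ± 0.11, adjusted p = 0.00814). The difference was below 0 for 36 of 41 members and above 0 for 43.1% of all genes, with a median of −0.32, and 22 members had an unadjusted p under 0.05 (13.1% of all genes). The count was 0 without peripheral capillary arrays 1 and 2, and it ranged from 0 to 8 as single arrays were left out: 0 without Peyer's patch capillary array 2, 1 without peripheral capillary array 1 or Peyer's patch capillary array 3, and 5 to 8 without peripheral capillary array 3, peripheral HEC array 2, or Peyer's patch HEC array 2 or 3. Mesenteric capillary cells had 0 calls against peripheral ones (0.12% of all genes higher, 0.171% lower) with 18 members at an unadjusted p under 0.05 (5.0% of all genes) and a median of −0.29. Peyer's patch against mesenteric capillary cells also gave 0 calls (1.02% and 0.833% of all genes), with 1 member at an unadjusted p under 0.05 (7.99% of all genes). The peripheral capillary arrays are part of both comparisons in which capillary differences lay mostly below 0. Each tissue enters more than 1 of these comparisons by design, and the source of the differences was not tested.

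Further cell cycle genes, grouped by function, were read in the same fit. Counts are to be read against the shares of all genes called, which were 8.9% higher and 10.6% lower in Peyer's patches, 13.1% and 11.4% in peripheral nodes, and 1.69% and 2.37% in the interaction. Of 60 other mitotic genes, 19 rose and 0 fell in Peyer's patch HEC against capillary cells, and 2 rose and 14 fell in peripheral HEC, with medians of 0.32 and −0.25; the interaction was called for 20, all more positive. Ube2c, the ubiquitin-conjugating enzyme of the anaphase-promoting complex, fell by 0.99 ± 0.17 in peripheral HEC and had an interaction of 1.49 ± 0.25. Cks1b, a subunit of Cdk complexes, rose in both Peyer's patch HEC (0.96 ± 0.19) and peripheral HEC (0.85 ± 0.18). Of 43 other replication genes, 6 rose and 2 fell in Peyer's patch HEC, and 8 rose and 6 fell in peripheral HEC. Of 14 repair genes of S phase, 4 rose and 2 fell in Peyer's patch HEC, and 0 rose and 2 fell in peripheral HEC. The repair and replication lists were not tested against the mitotic one.

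Markers of other cells moved with some of these groups, and their part in the results was not tested. Since values are centred, they show differences between arrays and not whether a marker is near 0 in signal. Of 16 intestinal epithelial genes, 12 were higher in Peyer's patch than in peripheral HEC (2.16% of all genes). The mean of the list was 0.42 to 0.78 in Peyer's patch HEC and −0.25 to −0.06 in peripheral HEC. In Peyer's patch HEC against capillary cells, 1 of the 16 was higher and 1 lower, with list means of 0.42 to 0.78 in HEC and 0.16 to 0.99 in capillary cells. Of 12 pericyte and smooth muscle genes, 10 were lower in peripheral HEC than in peripheral capillary cells (means of −0.78 to −0.70, against 0.39 to 1.04) and 7 in Peyer's patch HEC (−0.64 to −0.44, against −0.03 to 0.26). B cell genes went with HEC, at 0.17 to 0.30 in Peyer's patch HEC against −0.13 to −0.07 in the capillary cells, and at 0.54 to 0.76 in peripheral HEC against −0.09 to 0.12, with 3 and 7 of 11 called. Germinal centre B cell genes, from cells that divide in Peyer's patches, lay at −0.21 to −0.06 in Peyer's patch HEC against 0.14 to 0.25 in the capillary cells, with 2 of 7 called lower in HEC. T cell genes were at 0.33 to 0.40 in peripheral HEC against 0.08 to 0.20 in the capillary cells (5 of 10 called higher), and at −0.03 to 0.31 in Peyer's patch HEC against −0.19 to −0.06 (1 called higher). Lymphatic endothelial genes were at 0.84 to 1.14 in Peyer's patch HEC against 0.49 to 0.57 in the capillary cells, with 2 of 5 called higher and 1 lower. Lower list means stood in Peyer's patch HEC for fibroblastic stroma (−0.53 to −0.27, against −0.01 to 0.18, 2 of 10 called lower) and plasma cells (0.09 to 0.24, against 0.38 to 0.54, 1 of 7 called in each direction). In peripheral HEC the fibroblastic genes were at −0.55 to −0.15 against 0.04 to 0.46 (3 called lower), and the plasma cell genes at −0.06 to 0.15 against 0.23 to 0.41 (1 called in each direction). Myeloid genes lay at −0.07 to 0.12 in Peyer's patch HEC against −0.20 to −0.08 in the capillary cells (1 of 11 called in each direction), and 3 erythroid genes at −0.27 to −0.06 in peripheral HEC against 0.05 to 0.17 (1 called lower). The endothelial label could likewise be read only as a difference: of 14 pan-endothelial genes, 10 were lower in Peyer's patch HEC and 8 in peripheral HEC than in the capillary cells of the same tissue.

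**Figure D5:**
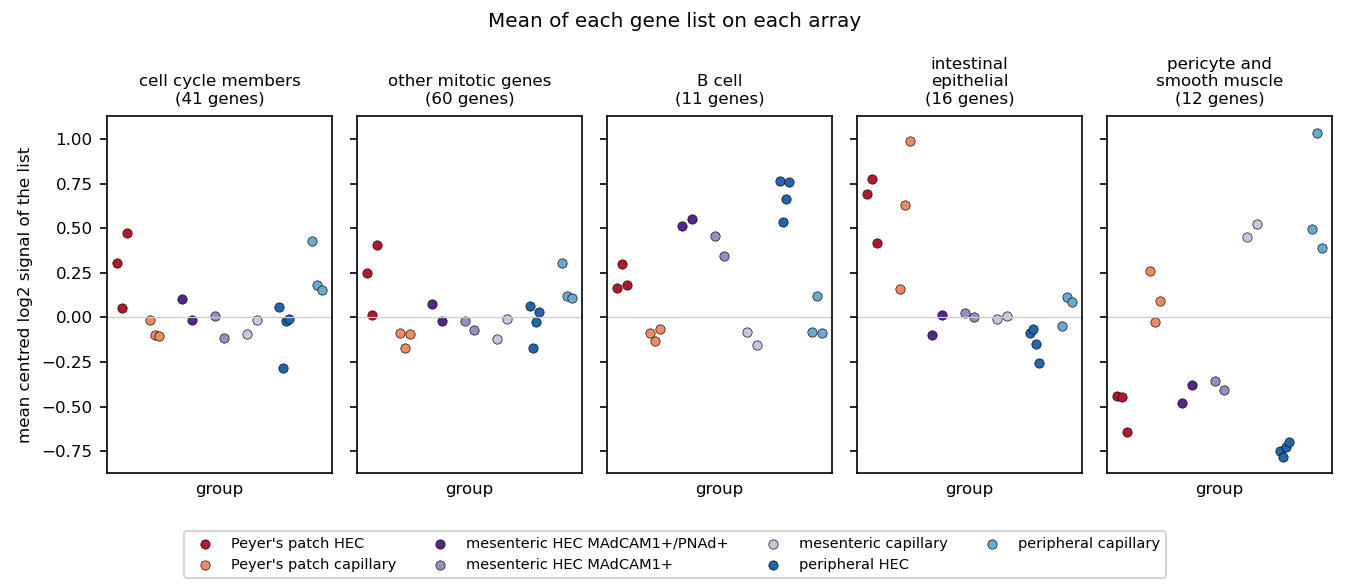
Mean centred log2 value of 5 gene lists (panels) on each array (points) by group. The means of the members are 0.05 to 0.47 in Peyer's patch HEC and −0.11 to −0.01 in Peyer's patch capillary cells, against −0.28 to 0.06 in peripheral HEC and 0.16 to 0.43 in peripheral capillary cells.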

How the data were processed

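Per the labels, RNA of sorted cells was amplified, labelled as cDNA and read on Affymetrix arrays. The 19 arrays have deposited log2 values for which the submitters' processing notes name RMA and Partek without versions; RMA compresses fold changes. They ran from −4.092 to 6.128 and were centred per probe set: 54.47% of 28856 probe sets held an exact 0 on some array and 8.01% had a median of exactly 0. The baseline of this centring is not given in the sources used here. Probe signals over background were not given, so that their precision rests on the number of arrays.

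Of the probe sets, 21789 carried 1 symbol, 1621 several and 5446 none; 21698 were matched through Entrez IDs to the GRCm38.p6 table, which changed 0 symbols. Values were averaged over the probe sets of a gene, 999 of 19938 genes having several. One limma fit (R 4.3.3, limma 3.58.1) gave each of 7 groups a mean, the 2 mesenteric gates being averaged for mesenteric HEC, with 12 residual and 4.62 prior degrees of freedom (prior SD 0.145). Tests were two-sided, with Benjamini-Hochberg adjustment over all genes of a comparison and a threshold of 0.05, and the fit was tested on simulated data. Promoter words were counted in Python 3.11.15, and figures were drawn with matplotlib 3.10.9.

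The members and lists were chosen with earlier results of these data known. All members could be named; array values were given for up to 8 members in each direction with the largest difference, called and with groups apart, and for 12 fixed genes in HEC comparisons, and from other lists up to 4 called genes. Alternatives were leaving out each array, leaving out peripheral capillary arrays 1 and 2, a replicate block, quantile normalisation and centring of arrays. Array weights, only the groups compared, the most variable probe set per gene and a filter on range were the others.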

Additional observations from a re-analysis of the deposited data

Results flagged for a closer look

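With 4 arrays, peripheral HEC was the group in which a single array could be tested for standing apart, and 3 of 41 members had one, where chance flags about 1 in 20 groups. Foxm1 was at 0.16 on array 3, with a gap to the nearest array of 0.95 of the group's range. Ccne2 was at 0.42 on array 1 (0.929 of the range) and Mcm4 at −0.52 on array 2 (0.89 of the range).

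The difference of HEC minus capillary cells departed between Peyer's patches and peripheral nodes in 14 members by the interaction test. In cyclins and Cdk1 it was 1.77 for Ccna2, 1.34 for Cdk1 and 1.10 for Ccnb2, on the log2 scale. In spindle genes it was 1.44 for Nusap1, 1.38 for Kif11, 0.84 for Tpx2 and 0.66 for Cenpf, and in mitotic kinases and checkpoint genes 1.25 for Plk1, 1.18 for Aurkb and 0.87 for Bub1b. Rrm2 had 1.29, E2f1 0.95, Mcm7 0.94 and E2f8 0.74. Peripheral capillary arrays 1 and 2, whose HEC genes were high, enter each of these values. Of 19 fits that left out 1 array, the interaction was called in 16 for Tpx2, 15 for Plk1 and 14 for Ccna2. It was called in 11 for Ccnb2 and Cdk1, 5 for Mcm7 and 3 for Bub1b, and in all 19 for the others.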

How the results depend on the processing

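Every called member kept the sign of its difference under all alternatives in which it was tested, and no count turned to the other direction. In Peyer's patch HEC against capillary cells, 8 of the 14 calls (Cdk1, E2f1, Kif11, Mcm2, Mcm5, Mcm7, Nusap1 and Pcna) held in all of them. The same was true of 1 of 13 in peripheral HEC against capillary cells (Aurka), 2 of 14 in the interaction of Peyer's patches and peripheral nodes (E2f1 and Nusap1), 1 of 7 in Peyer's patch against peripheral HEC (Rrm2), and of 0 of 3 in Peyer's patch against peripheral capillary cells. As each array was left out in turn, the counts ranged over 10 to 19, 9 to 17, 8 to 20, 2 to 10 and 0 to 8 in these 5 comparisons. The share of all genes called moved with them, over 14.8% to 22.3%, 16.4% to 29.3%, 2.53% to 14.7%, 3.57% to 26.6% and 3.25% to 5.22%; the highest share in each came without Peyer's patch HEC array 3. Without that array, 10 members and 26.6% of all genes were called in Peyer's patch against peripheral HEC. The counts ranged over 0 to 2 in mesenteric HEC against capillary cells, 0 to 4 in Peyer's patch against mesenteric HEC, 0 to 1 in the other 2 interactions, and stayed at 0 in the remaining 4 comparisons.

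Array weights raised the counts to 23, 20, 28, 24 and 11 in the first 5 comparisons in the order above, where they called 35.5%, 33.7%, 19.9%, 36.1% and 6.76% of all genes, against 19.5%, 24.6%, 4.05%, 6.65% and 4.64% without weights. They gave 2 in mesenteric HEC against capillary cells, 15 in Peyer's patch against mesenteric HEC and 3 in the Peyer's patch and mesenteric interaction. The weights of Peyer's patch HEC arrays 1, 2 and 3 were 4.35, 0.31 and 0.28, and their gene-by-gene estimate was chosen after seeing the data. Without peripheral capillary arrays 1 and 2 the counts were 1 in peripheral HEC against capillary cells, 2 in the interaction with Peyer's patches and 0 between the capillary cells of those tissues (13.3%, 1.79% and 1.78% of all genes). Quantile normalisation gave 3 in Peyer's patch against peripheral HEC, 2 in mesenteric HEC against capillary cells and 8 in Peyer's patch against peripheral capillary cells, where centred arrays gave 1 and the filter on range 7. The filter, which kept 33 members, gave 2 in Peyer's patch against mesenteric HEC and 2 in mesenteric HEC against capillary cells. Fits of only the compared groups gave 2 in Peyer's patch against peripheral HEC, 0 in Peyer's patch against mesenteric HEC and 3 in mesenteric HEC against capillary cells. The cause of these shifts was not tested.

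Whether the replicate numbers pair the samples was not settled. Over 41 pairs of same-numbered arrays the deviations correlated at −0.426 to 0.556, with 17 above 0.1. Arrays with different numbers were not compared, and in groups of 2 arrays the deviations mirror each other. These values therefore cannot tell whether same-numbered arrays belong together. With the number as a replicate block the counts were 17, 15, 17, 8 and 7 in the first 5 comparisons.

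With 2 to 4 arrays a group, a member that missed the threshold was not shown to be alike between groups.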

Other observations

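Of 15 measured G1 regulators and CDK inhibitors, 1 was higher and 5 lower in HEC than in capillary cells of Peyer's patches, 1 higher and 2 lower in mesenteric nodes, and 0 higher and 3 lower in peripheral nodes. Of all genes, 8.9% were called higher and 10.6% lower in Peyer's patches, and 7.87% and 7.31% in mesenteric nodes. The shares in peripheral nodes were 13.1% and 11.4%. The counts of the G1 list were not tested against these shares or against those of the members. Rb1, the retinoblastoma protein that holds E2F factors in check, was lower in HEC than in capillary cells of all 3 tissues, by 1.75 ± 0.15 in Peyer's patches, 1.43 ± 0.16 in mesenteric nodes and 0.43 ± 0.14 in peripheral nodes, on the log2 scale. The D-type cyclins went in opposite directions. Ccnd1 was higher in HEC of Peyer's patches (1.34 ± 0.13) and mesenteric nodes (1.00 ± 0.14) and was not called in peripheral nodes (0.23 ± 0.12), while Ccnd2 was lower in all 3 tissues (−1.29 ± 0.16, −1.04 ± 0.17 and −0.91 ± 0.15 in the same order). The interaction of Peyer's patches and peripheral nodes was −1.32 ± 0.21 for Rb1 and 1.12 ± 0.18 for Ccnd1.

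Pole, the catalytic subunit of the leading-strand polymerase, was higher in HEC by 2.20 ± 0.21 in Peyer's patches, 2.18 ± 0.23 in mesenteric nodes and 1.73 ± 0.20 in peripheral nodes, a larger difference than that of any measured member in those comparisons. Mycn, a MYC family factor, was higher by 1.37 ± 0.17, 1.57 ± 0.18 and 1.38 ± 0.16 in the same tissues. Cdk6, a partner of D-type cyclins, was 1.28 ± 0.12 higher in HEC of Peyer's patches than of peripheral nodes. Genes of these lists were named by the size of a called difference.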
